A study of Mus musculus with 12 samples.

Results

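Hearts of mice given busulfan followed by FMT of either kind were set against hearts of mice given busulfan without FMT, to describe what both kinds of FMT had in common. The comparison took 9 of the 12 RNA-seq libraries of the series by their labels: 3 of busulfan with control-FMT, 3 of busulfan with AOS-FMT, and 3 of busulfan alone. The FMT side was the mean of the 2 group means, so each kind carried equal weight. All libraries were made from total RNA of the heart, taken from mice of the outbred ICR stock aged 10 weeks. Busulfan alone was given at 20 mg/kg. The FMT groups are labelled B+Con-FMT and B+AOS10mg/kg-FMT, the latter with AOS at 10 mg/kg, and their labels state no busulfan dose. FMT and AOS are written as labelled. The remaining 3 libraries, from control mice, received no listed treatment and entered the statistical model only to estimate the spread. Their values are given for orientation. Whether the numbered replicates of a group are different animals is not stated in the labels, and p-values therefore measure only the spread between these samples, which may be technical.

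Busulfan is an alkylating drug that damages DNA and is used to deplete bone marrow. Heart muscle consists by mass mainly of cardiomyocytes, whose transcripts for contractile and mitochondrial proteins dominate the RNA, but it also holds fibroblasts, endothelial cells and macrophages. MHC class II molecules present peptides from endocytosed protein to CD4 T cells and are carried mainly by macrophages, dendritic cells and B cells. Immediate early genes such as Atf3 and the Nr4a family encode transcription factors that are switched on within minutes of a stimulus, handling stress included. In bulk tissue, fewer cells of a type and less RNA per cell cannot be told apart.

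Library totals were 11333600 to 14335700 estimated counts. Levels are in CPM, the count scaled to a common library total with factors from the trimmed mean of M values (TMM), and 13489 genes were tested with edgeR. Genes are described as called where the p adjusted by Benjamini-Hochberg over all of these was under 0.05. Atrial and liver transcripts varied strongly between libraries. Summed over 15 atrial markers, the level was 1504 to 5141 CPM in busulfan, 1802 to 6186 in control-FMT and 3544 to 33381 in AOS-FMT, and 3324 to 25638 in the control mice. For 20 liver markers the ranges were 74.4 to 107, 80.9 to 138, 165 to 1056 and 65.1 to 165. No marker on either list was at 0 in all libraries of a group. The defining cardiomyocyte transcript Myh6 was abundant in every library, at 36457 to 71854 CPM.

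**Figure D1:**
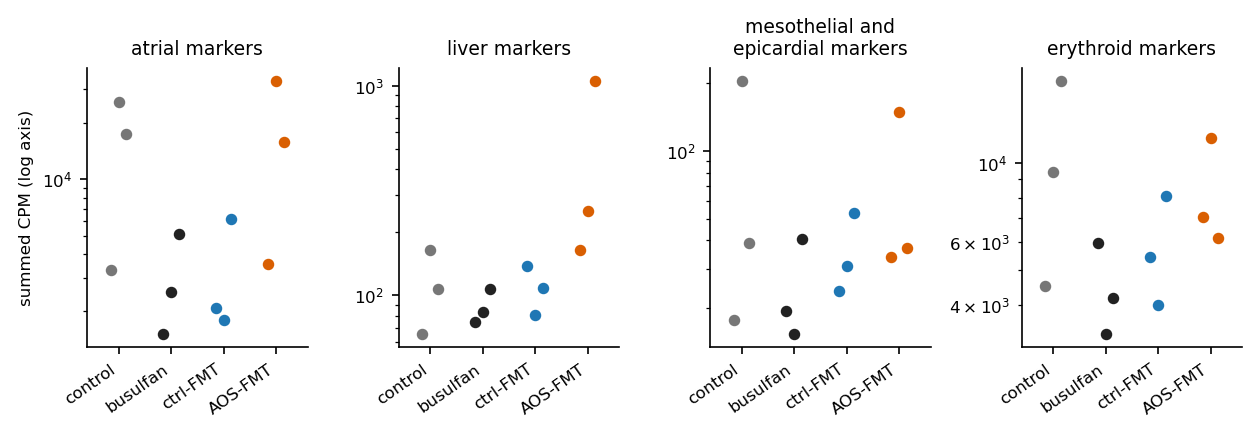
Summed CPM of 15 atrial, 20 liver, 14 mesothelial and epicardial and 13 erythroid marker genes in each library (points; log axes), by group. The AOS-FMT libraries reach the highest liver sums, up to 1056 CPM against at most 107 in busulfan, while the busulfan and control-FMT libraries overlap in all 4 panels.

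No single gene was called in the pooled comparison. edgeR called 0 of 13489 genes in either direction (0% of genes tested), with a smallest adjusted p of 0.497. At an unadjusted p under 0.05, edgeR placed 600 genes higher and 465 lower after FMT, together 7.9% of those tested. These counts were 300 and 276 without busulfan replicate 1, 495 and 252 without busulfan replicate 2, and 345 and 249 with a term for the atrial marker score. They rose to 799 and 720 with the 9 libraries alone and to 875 and 687 without AOS-FMT replicate 1. limma-voom also called 0 genes. DESeq2 called 18, of which 14 were higher and 4 lower, among them Atf3, H2-Aa, Hp, Bcl6, Cd74 and Pde4b on the higher side and Ptgds, Akap8l and Pfkp on the lower side. The median standard error of a log2 difference was 0.14, and the median log2 difference over all genes was 0.00, with 50.7% of genes above 0. A gene is described as fully separated where its 6 FMT libraries all lay above, or all below, the 3 busulfan libraries. This held upward for 318 genes (2.36%) and downward for 450 genes (3.34%). With CPM scaled by library size instead of TMM, which raises the median of all genes by 0.106 on the log2 scale, it held upward for 982 genes (7.28%) and downward for 107 (0.793%), and 1375 genes were higher and 114 lower at an unadjusted p under 0.05.

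The MHC class II genes were higher after both kinds of FMT than after busulfan alone, though none was called by edgeR. Of 11 listed genes, 9 passed the filter on low counts, and all 9 had a log2 difference above 0, with a median of 0.78 beside 0.00 over all genes. Of the 9, 5 had an unadjusted p under 0.05, where 4.45% of all genes were higher at that p. Fully separated upward were 4 with TMM (2.36% over all genes) and 4 by library size (7.28% over all genes). The median was 0.74 for control-FMT and 0.87 for AOS-FMT, each against the same 3 busulfan libraries. Over 23 alternative settings the list's median stayed between 0.65 and 0.94.

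H2-Aa encodes the alpha chain of the class II molecule I-A. It stood at 65.3, 62.8 and 65.0 CPM in the busulfan libraries, at 110, 166 and 92.7 in control-FMT, and at 118, 179 and 130 in AOS-FMT. All 6 FMT libraries lay above the 3 busulfan libraries, which were close together, and the control mice stood at 91.6 to 140. The pooled log2 difference was 1.04 ± 0.20 (SE), with an adjusted p of 0.626 by edgeR and 0.00103 by DESeq2. Its partner in the I-A molecule, the beta chain gene H2-Ab1, stood at 59.6, 52.9 and 50.6 CPM in busulfan, 93.5, 148 and 76.5 in control-FMT and 93.2, 127 and 79.0 in AOS-FMT. Again no FMT library reached down to the busulfan range. Its difference was 0.92 ± 0.21 (adjusted p 0.626 by edgeR).

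Cd74 encodes the invariant chain, which escorts class II molecules through the cell. Its level was 190, 170 and 185 CPM in busulfan, 302, 427 and 234 in control-FMT and 293, 357 and 261 in AOS-FMT, without overlap, for a difference of 0.78 ± 0.17 (adjusted p 0.626, edgeR). H2-DMa, a chain of the peptide-loading factor, was lower in level but showed the same separation, with 5.92 to 7.78 CPM in busulfan and 8.54 to 16.9 over the 6 FMT libraries. H2-DMb1, its partner chain, overlapped between the groups, at 2.46 to 5.41 and 3.97 to 10.9 CPM. H2-Eb1, the beta chain of the I-E molecule, was spread widely in every group, from 1.65 to 18.3 CPM in busulfan and from 2.54 to 40.5 after FMT, and its difference of 1.33 ± 0.98 was within that spread.

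The promoters of the class II genes are known for a shared block of elements ending in the Y box. The promoter sequences of H2-Aa and H2-Eb1 are shown because they are those on this list in which the Y box letters CTGATTGG were found on either strand. They were read from RefSeq on GRCm38.p6, from 250 bases before to 50 bases after the gene start, and are written along the coding strand. H2-Aa lies at chr17:34287774-34288073 on the minus strand and H2-Eb1 at chr17:34305617-34305916 on the plus strand. Capitals mark the Y box and, in H2-Aa, also the cyclic AMP response element TGACGTCA that stands upstream of it.
H2-Aa: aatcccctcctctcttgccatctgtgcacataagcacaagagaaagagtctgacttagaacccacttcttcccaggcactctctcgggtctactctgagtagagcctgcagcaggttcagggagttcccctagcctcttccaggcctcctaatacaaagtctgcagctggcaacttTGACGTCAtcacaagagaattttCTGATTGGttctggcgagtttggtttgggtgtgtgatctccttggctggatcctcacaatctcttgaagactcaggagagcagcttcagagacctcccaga
H2-Eb1: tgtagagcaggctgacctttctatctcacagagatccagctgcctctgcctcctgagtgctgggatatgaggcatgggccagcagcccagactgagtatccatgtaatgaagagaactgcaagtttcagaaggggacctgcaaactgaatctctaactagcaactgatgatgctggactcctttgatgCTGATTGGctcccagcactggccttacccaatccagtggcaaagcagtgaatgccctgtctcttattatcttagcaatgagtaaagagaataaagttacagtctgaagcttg

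Promoters were listed for 6 of the class II genes, 7 promoters in all. The Y box letters were in 2 of these 7 and in 4.1% of all 32851 promoters of that length. The cyclic AMP response element was in 1 of the 7 and in 1.79% of all promoters. A match describes the letters and does not show that a factor was bound.

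No class II gene was called between the kinds of FMT. AOS-FMT minus control-FMT was 0.22 on the log2 scale for H2-Aa (95% interval -0.27 to 0.70), -0.09 for H2-Ab1 (-0.60 to 0.42) and -0.08 for Cd74 (-0.50 to 0.34). It was larger and less precise for H2-DMb1, at 0.51 (-0.20 to 1.23), and for H2-Eb1, at 1.20 (-1.18 to 3.58). Each of these intervals includes 0. In edgeR's test of AOS-FMT against control-FMT, 0 of the 9 class II genes had an unadjusted p under 0.05, where 6.23% of all genes did.

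Markers of macrophages and B cells, which carry class II molecules, leaned higher after FMT but overlapped busulfan in their sums. The 20 macrophage markers summed to 714 to 927 CPM in busulfan, 874 to 1393 in control-FMT and 1016 to 1453 in AOS-FMT, and 1012 to 1446 in the control mice. Of the 20, 18 had a log2 difference above 0 and 6 an unadjusted p under 0.05, all higher (4.45% over all genes), with a median of 0.38. Fully separated upward were 0 of the 20 (2.36% over all genes). The 8 B cell markers in the file summed to 3.73 to 7.49 CPM in busulfan and 5.44 to 11.4 over both FMT kinds. Of the 5 that passed the filter, 4 were above 0 and 0 were fully separated upward. No macrophage or B cell marker was at 0 in all libraries of a group. The part of these cells in the class II values was not tested.

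**Figure D2:**
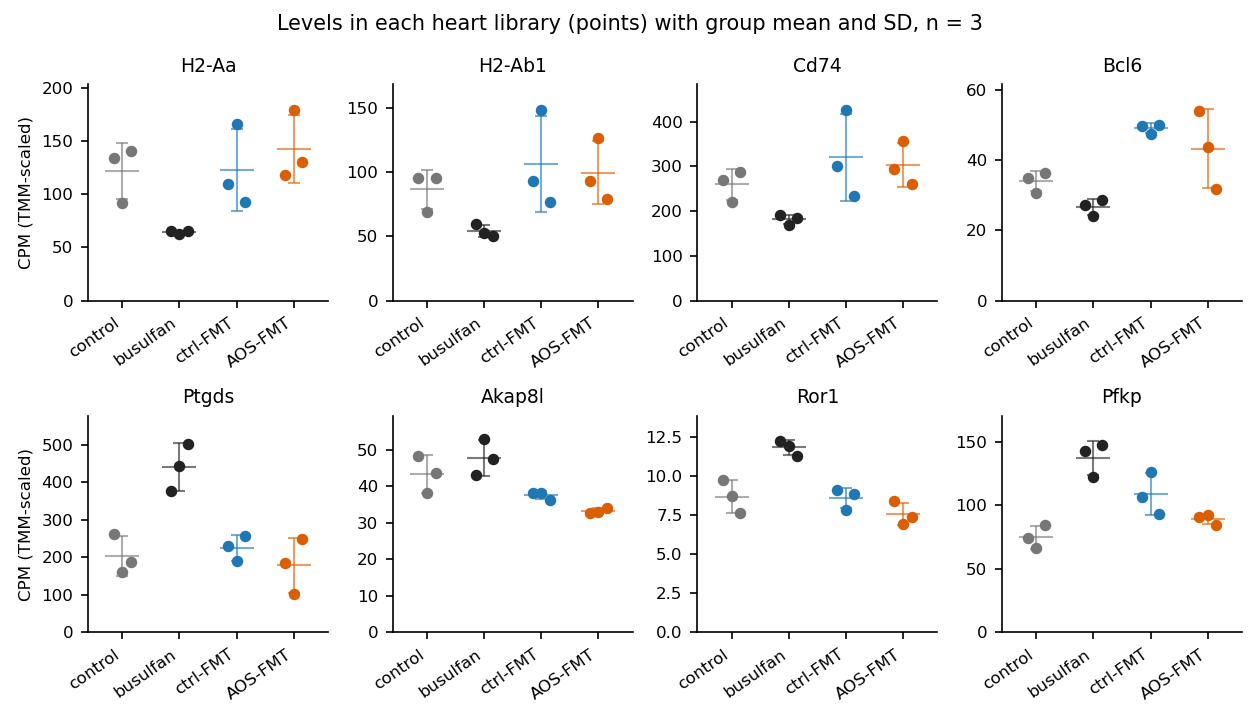
Level of 8 genes in each library (points), in TMM-scaled CPM on axes that start at 0, with the mean and SD of each group of 3. H2-Aa, H2-Ab1, Cd74 and Bcl6 lie higher in all 6 FMT libraries than in the 3 busulfan libraries, Ptgds, Akap8l and Ror1 lie lower, and Pfkp overlaps in 1 control-FMT library at 126 CPM.

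Among macrophage and monocyte genes, Lyz2, which encodes lysozyme, had 172, 277 and 236 CPM in busulfan, 335, 608 and 241 in control-FMT and 389, 481 and 341 in AOS-FMT. Only control-FMT 3 fell within the busulfan range. The difference was 0.81 ± 0.28, not called (adjusted p 0.626, edgeR). Ccr2, the chemokine receptor of recruited monocytes, was separated at a low level, with 3.92 to 4.58 CPM in busulfan and 5.12 to 11.2 after FMT (0.90 ± 0.29). Mrc1, a mannose receptor typical of resident macrophages, overlapped, at 33.6 to 43.6 and 42.5 to 61.4 CPM (0.35 ± 0.13). Markers of T and NK cells were low, with 6 of 15 measured and a sum of 5.52 to 27.8 CPM over the FMT libraries against 5.66 to 9.67 in busulfan.

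The lists for MHC class I, interferon and endotoxin sensing had medians closer to that of all genes. The 16 genes of MHC class I and the immunoproteasome had a median of -0.13, and 6 of them were above 0. That median turned to 0.13 without busulfan replicate 2. The 26 interferon-stimulated genes had a median of -0.01, whose sign also depended on the setting, between -0.15 and 0.18. Toll-like receptor and endotoxin-sensing genes had a median of 0.20 over 22 genes, of which 4 were higher at an unadjusted p under 0.05 (4.45% over all genes), and the median was 0.11 without busulfan replicate 1. Tlr8, an endosomal RNA sensor, was at 1.74 to 3.31 CPM in busulfan and 2.74 to 5.10 after FMT (0.67 ± 0.24), and Cd14, the endotoxin co-receptor, at 10.9 to 12.8 and 12 to 20.6 (0.43 ± 0.13). Both overlapped between the groups.

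Bcl6 encodes a transcriptional repressor that restrains inflammatory and metabolic gene programmes. It was at 27.2, 24.2 and 28.8 CPM in busulfan, at 49.6, 47.5 and 50 in control-FMT, and at 54.1, 43.8 and 31.7 in AOS-FMT. The 3 control-FMT libraries lay close together, the AOS-FMT libraries spread, and all 6 exceeded busulfan and its highest value of 28.8. The difference was 0.78 ± 0.14, the second smallest p of the comparison, with an adjusted p of 0.497 by edgeR. Without AOS-FMT replicate 3 it was called by edgeR at an adjusted p of 0.0359. Control-FMT against busulfan gave 0.88 and AOS-FMT against the same busulfan libraries 0.69, and the kinds differed by -0.18 (95% interval -0.52 to 0.15). The control mice stood at 30.7 to 36.4 CPM.

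A few genes had nearly equal differences for each kind. Fam172a, an RNA-silencing cofactor in the nucleus, was at 10.6 to 12.5 CPM in busulfan and 14.8 to 18.2 after FMT, with 0.49 for control-FMT and 0.51 for AOS-FMT. Ifi202b, an interferon-inducible DNA-binding protein, was low throughout, at 1.1 to 1.22 and 1.98 to 3.06 CPM, with 1.16 and 1.14. Both genes were fully separated, neither was called by edgeR, and they were singled out after their values were seen. Ctsk, which encodes the collagen-degrading protease cathepsin K, was at 0.087, 0.255 and 1.01 CPM in busulfan and 1.59 to 7.68 after FMT. Its difference of 3.07 ± 0.79 rests on a level close to 0 in busulfan.

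On the lower side, Ptgds, the lipocalin-type prostaglandin D2 synthase, had the largest difference of the genes named by rank. Its level was 376, 443 and 502 CPM in busulfan, 230, 189 and 257 in control-FMT and 184, 102 and 248 in AOS-FMT. The highest FMT library, at 257, was well under the lowest busulfan library. The pooled difference was -1.14 ± 0.23 (adjusted p 0.626 by edgeR, 0.0025 by DESeq2), made up of -0.97 for control-FMT and -1.30 for AOS-FMT against shared busulfan libraries. The control mice, at 160 to 263 CPM, were in the range of the FMT libraries.

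Akap8l, a nuclear anchoring protein related to A-kinase anchors, was at 43.0, 52.9 and 47.4 CPM in busulfan, 38.2, 38.0 and 36.2 in control-FMT and 32.5, 32.8 and 34.1 in AOS-FMT. The FMT libraries were tight and fully below busulfan, with a difference of -0.44 ± 0.09 (adjusted p 0.626, edgeR). Ror1, a receptor tyrosine kinase for Wnt5a, was at 11.3 to 12.3 CPM in busulfan and 6.97 to 9.09 after FMT (-0.55 ± 0.12). Pfkp and Pfkl, the platelet and liver forms of the glycolytic enzyme phosphofructokinase, had -0.48 ± 0.11 and -0.51 ± 0.16. Pfkp overlapped between the groups and Pfkl did not, at 193 to 259 CPM in busulfan and 105 to 190 after FMT. For Pfkp the control mice were lower than any FMT library, at 66.3 to 84.2 CPM against 84.5 to 126.

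Among the immediate early genes, the pooled values came mostly from AOS-FMT. Of 27 measured, 26 had a pooled log2 difference above 0 and 11 an unadjusted p under 0.05, all higher, where 4.45% of all genes were higher at that p. Fully separated upward was 1 of the 27, a share near the 2.36% over all genes. The median was 0.36, made up of 0.15 for control-FMT and 0.64 for AOS-FMT against the same busulfan libraries. In the test of AOS-FMT against control-FMT, which uses no busulfan library, 12 of the 27 were higher at an unadjusted p under 0.05, where 3.88% of all genes were, and 1 was called by edgeR.

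Atf3, a stress-induced repressor of the ATF and CREB family, had the smallest p of the pooled comparison. It was at 4.61, 4.07 and 8.29 CPM in busulfan, 6.58, 12.7 and 7.94 in control-FMT and 25.4, 26.3 and 24.6 in AOS-FMT. The AOS-FMT libraries were about equal and above all others, while control-FMT overlapped busulfan. The pooled difference was 1.42 ± 0.24 (adjusted p 0.497, edgeR), from 0.68 for control-FMT and 2.17 for AOS-FMT. The kinds differed by 1.49 ± 0.25 (95% interval 0.94 to 2.04), which was not called (adjusted p 0.137, edgeR). Nr4a3, an orphan nuclear receptor, was at 1.22, 2.21 and 2.20 CPM in busulfan, 2.35, 2.70 and 2.33 in control-FMT and 9.64, 10.1 and 26.8 in AOS-FMT. Its groups did not overlap, but the control-FMT libraries lay just above busulfan, and the kinds differed by 2.65 ± 0.47 (adjusted p 0.195, edgeR). Its relative Nr4a2 was at 0.424 to 1.69, 0.549 to 2.16 and 6.2 to 6.62 CPM in the same order of groups.

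Many immediate early promoters carry the cyclic AMP response element or its core TGACG, where CREB and ATF proteins bind. The promoters of Atf3 and Nr4a3 are shown because Atf3 had the smallest pooled p and Nr4a3 the largest difference between the kinds of the genes named from this list. From RefSeq on GRCm38.p6, Atf3 lies at chr1:191183284-191183583 on the minus strand and Nr4a3 at chr4:48045055-48045354 on the plus strand, each written along the coding strand. Capitals mark every TGACG and its reverse complement CGTCA.
Atf3: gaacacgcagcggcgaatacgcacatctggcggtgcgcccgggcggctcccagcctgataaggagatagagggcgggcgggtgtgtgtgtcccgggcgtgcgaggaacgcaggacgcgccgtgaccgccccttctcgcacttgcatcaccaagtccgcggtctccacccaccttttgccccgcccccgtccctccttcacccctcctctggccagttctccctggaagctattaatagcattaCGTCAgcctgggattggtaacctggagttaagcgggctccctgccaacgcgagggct
Nr4a3: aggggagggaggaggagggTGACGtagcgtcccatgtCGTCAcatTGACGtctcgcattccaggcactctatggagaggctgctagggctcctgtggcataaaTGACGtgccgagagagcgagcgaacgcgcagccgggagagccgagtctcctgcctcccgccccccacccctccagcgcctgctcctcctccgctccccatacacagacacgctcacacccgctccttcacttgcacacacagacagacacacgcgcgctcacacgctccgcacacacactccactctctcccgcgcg

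The Atf3 window holds 1 match, as CGTCA in the printed sequence, and the Nr4a3 window holds 4. Promoters were listed for 22 genes of the immediate early list, 28 promoters in all, of which 17 (60.7%) held TGACG on either strand, beside 20.8% of all promoters. The 8-letter element TGACGTCA, which contains the core on both strands, was in 3 of the 28 and in 1.79% of all. The AP-1 letters TGANTCA were in 0 of the 28 and in 7.81% of all. The element in the H2-Aa promoter above has the same letters, TGACGTCA. Whether the matched letters bear on any of the values was not tested.

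Between the kinds, edgeR called 4 genes, all higher in AOS-FMT (0.0297% of genes tested), and 0 lower. Fosl2, an AP-1 subunit, was at 54.9, 50.7 and 72.9 CPM in AOS-FMT and 24.9, 22.2 and 22.3 in control-FMT, a rise of 1.36 ± 0.16 (adjusted p 0.0154, edgeR). Irs2, an adaptor of the insulin receptor, was at 73.5, 49.6 and 100 against 16.1, 14 and 16 CPM, a rise of 2.27 ± 0.28 (adjusted p 0.0246, edgeR). Sik1, a salt-inducible kinase induced by cyclic AMP signalling, was at 106, 96.6 and 138 against 31.7, 32.8 and 50.8 CPM, a rise of 1.56 ± 0.21 (adjusted p 0.0326, edgeR). For these 3 genes the control-FMT libraries overlapped the busulfan libraries. Their values against busulfan were -0.11, -0.08 and -0.01 for control-FMT and 1.25, 2.19 and 1.56 for AOS-FMT.

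The pooled differences of these genes, 0.57 for Fosl2, 1.06 for Irs2 and 0.77 for Sik1, therefore average a value near 0 with a high one. Gvin1, a large interferon-inducible GTPase, was the remaining called gene, at 3.84 to 4.58 CPM in control-FMT, 6.34 to 7.66 in busulfan and 9.94 to 15 in AOS-FMT. It had a pooled value of 0.02 ± 0.19 because the kinds lay on either side of busulfan, and it belongs to a family of near-identical copies whose reads may have been split. Against busulfan, edgeR called 0 genes for control-FMT (0%), where 238 were higher (1.76%) and 120 lower (0.89%) at an unadjusted p under 0.05, together 2.65%. It called 6 for AOS-FMT, all higher (0.0445%): Fosl2, Sik1, Irs2, Atf3, Hp and Slc25a25. For AOS-FMT 1052 genes were higher (7.8%) and 789 lower (5.85%) at an unadjusted p under 0.05, together 13.6%. The 4 calls between the kinds were not stable. Leaving out either of control-FMT replicates 1 and 2 left no called gene, as did a term for the atrial or the liver marker score, whose markers reached their highest sums in AOS-FMT. DESeq2 called 32 genes between the kinds.

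**Figure D3:**
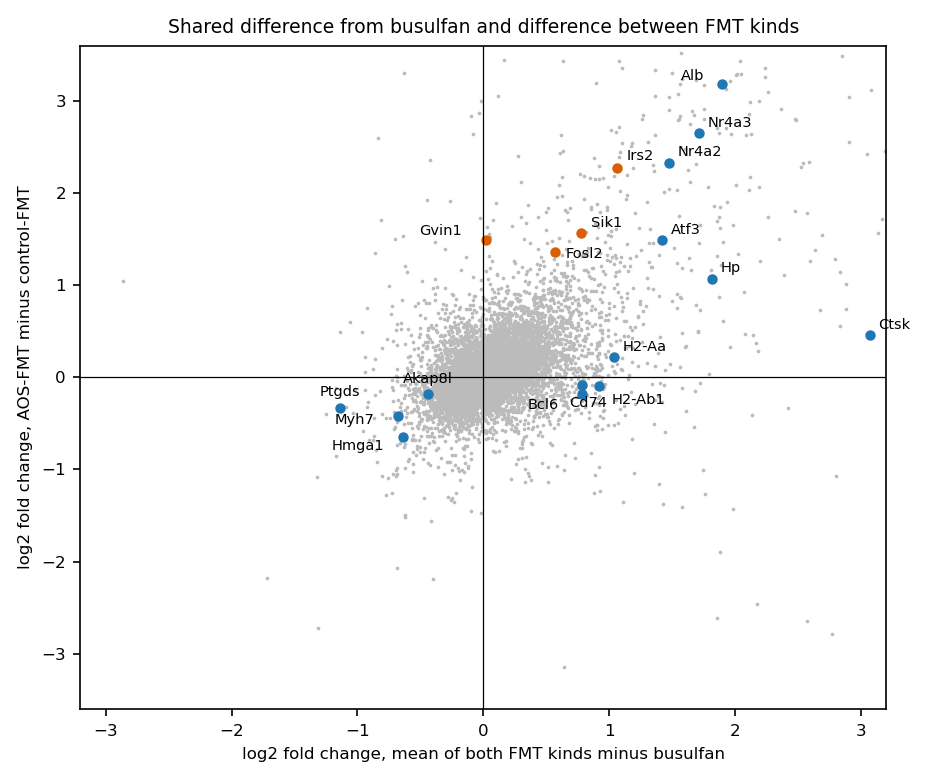
Each grey point is 1 of the 13458 genes within the axes (31 lay outside), by its log2 difference of both FMT kinds against busulfan (x axis) and of AOS-FMT against control-FMT (y axis), both from edgeR. H2-Aa, H2-Ab1, Cd74, Bcl6 and Ptgds lie between -0.34 and 0.22 on the y axis, whereas Atf3, Nr4a3, Irs2, Sik1 and Fosl2 lie high on it, and orange marks the 4 genes called between the kinds.

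Genes of the same signalling group had intermediate patterns. Pde4b, a cyclic AMP phosphodiesterase, was at 36.3, 35.7 and 34.4 CPM in busulfan, 43.1, 39.2 and 41.7 in control-FMT and 51.2, 63.6 and 57.5 in AOS-FMT. The groups formed steps without overlap, for a pooled difference of 0.46 ± 0.10 and a difference between the kinds of 0.48 ± 0.11 (adjusted p 0.626 and 0.508, edgeR). Rgs2, an inhibitor of Gq signalling that limits cardiac hypertrophy, was at 23.7, 26.5 and 23.8, then 27.4, 32.7 and 34.0, then 37.3, 62.2 and 52.7 CPM in that order, again without overlap (pooled 0.70 ± 0.16). Slc25a25, a mitochondrial carrier for ATP-Mg and phosphate, was at 8.54 to 9.25 CPM in busulfan, 8.07 to 9.66 in control-FMT and 15.2 to 23.3 in AOS-FMT. Its pooled difference of 0.53 ± 0.15 thus came from 1 kind, and the kinds differed by 1.04 ± 0.16 (adjusted p 0.0594, edgeR). Of the 17 measured SIK and CREB targets, 12 were above 0, with a median of 0.16 (0.02 for control-FMT, 0.40 for AOS-FMT), which was 0.10 without busulfan replicate 3.

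**Figure D4:**
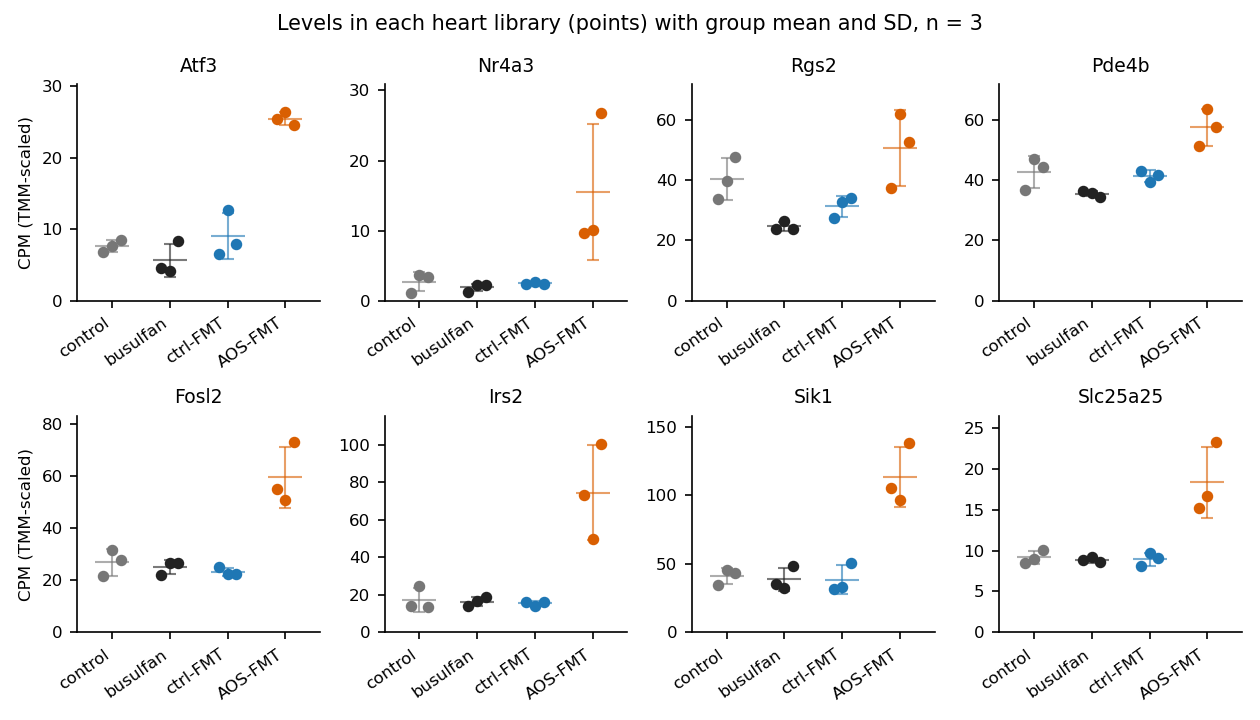
Level of 8 genes in each library (points), in TMM-scaled CPM on axes that start at 0, with the mean and SD of each group of 3. For Atf3, Fosl2, Irs2, Sik1 and Slc25a25 the AOS-FMT libraries stand above all others and control-FMT overlaps busulfan, while Pde4b and Rgs2 rank busulfan lowest and AOS-FMT highest without overlap.

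Clock genes were mixed, while glucocorticoid-responsive genes leaned higher mostly in AOS-FMT. Of 19 clock genes, 11 were above 0, with a median of 0.05. At an unadjusted p under 0.05, edgeR placed 5 of them higher and 1 lower (4.45% and 3.45% over all genes). Of 18 glucocorticoid-responsive genes, 12 were above 0, and 6 were higher and 0 lower at that p. Their median was 0.23, with 0.02 for control-FMT and 0.39 for AOS-FMT. Per1, a clock repressor that is also an immediate target of glucocorticoids, was at 8.91 to 13.2 CPM in busulfan, 10.6 to 14.9 in control-FMT and 19.4 to 45.8 in AOS-FMT (pooled 0.82 ± 0.23). Per2 was at 1.27 to 3.48 CPM in busulfan and 2.52 to 6.04 after FMT, with 1.03 for control-FMT and 0.76 for AOS-FMT. Arntl, which encodes the clock activator BMAL1, was fully separated downward, at 37.0 to 42.8 CPM in busulfan and 21.7 to 35.6 after FMT (-0.38 ± 0.12). None was called by edgeR, and the time of day of collection is not given in the labels. Tsc22d3, the glucocorticoid-induced leucine zipper, was at 63.5 to 67.1, 63.2 to 70.9 and 89.5 to 141 CPM in busulfan, control-FMT and AOS-FMT.

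Genes of contraction and oxidative metabolism leaned lower after both kinds of FMT by small amounts. All 76 measured nuclear genes of oxidative phosphorylation had a log2 difference below 0, with a median of -0.28 (-0.21 for control-FMT and -0.33 for AOS-FMT), and 16 had an unadjusted p under 0.05, where 3.45% of all genes were lower at that p. None was called by edgeR. Fully separated downward were 34 of the 76 with TMM (3.34% over all genes). By library size, with the shift of all genes given above, 14 were (0.793% over all genes). The genes of this list share the cardiomyocyte as their main source and are not independent of one another.

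Cox6a2, the muscle form of a cytochrome c oxidase subunit, was at 5086, 4584 and 4804 CPM in busulfan, 3969, 3360 and 3856 in control-FMT and 3689, 2820 and 2881 in AOS-FMT. The ranges did not meet, and the difference was -0.50 ± 0.16 (adjusted p 0.626, edgeR). Atp5k, a small subunit of ATP synthase, had 125 to 167 CPM in busulfan and 81.5 to 110 after FMT (-0.60 ± 0.17), and Cox5b 855 to 1016 and 587 to 832 CPM (-0.44 ± 0.14). Idh2, a mitochondrial isocitrate dehydrogenase, was at 1783 to 1952 and 1015 to 1699 CPM (-0.44 ± 0.13). Mitochondrial ribosomal proteins had a median of -0.13, with 58 of 68 below 0, and fatty acid uptake and oxidation genes -0.17, with 25 of 28 below 0. The former was -0.02 with a term for the atrial marker score, and the latter -0.27 without busulfan replicate 2. Cytosolic ribosomal proteins, with 36 of 62 above 0, had a median of 0.03, and that sign turned in 2 settings, to -0.04 without AOS-FMT replicate 2.

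Of 26 sarcomere and Z-disc genes, 23 were below 0, with a median of -0.32, and 7 were lower at an unadjusted p under 0.05 (3.45% over all genes). Fully separated downward were 11 with TMM (3.34% over all genes) and 6 by library size (0.793%). Myh7, the slow myosin heavy chain that is raised in stressed mouse ventricle, was at 3427, 4393 and 3112 CPM in busulfan, 2600, 2416 and 2869 in control-FMT and 2221, 1996 and 1677 in AOS-FMT. All FMT libraries were lower than all busulfan libraries, with a difference of -0.68 ± 0.18 (adjusted p 0.626, edgeR). Myh6, the fast form, was at 55086 to 71854 and 40905 to 51292 CPM (-0.43 ± 0.15). Myh6 and Myh7 are close copies of each other, as are Lyz2 and Lyz1 or C1ra and C1rb, and how reads that map to several genes were shared out is not given in the sources used here, so their separate levels are uncertain. Tnni3, cardiac troponin I, had 7223 to 8220 and 5147 to 6667 CPM (-0.38 ± 0.16).

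The muscle values moved with the markers of cell types, but the lists share members, so this is partly the same genes. Myh7 is on the ventricular and sarcomere lists, Myh6 on the cardiomyocyte and sarcomere lists, and Cox6a2 on the cardiomyocyte and oxidative phosphorylation lists. The 10 ventricular markers summed to 28774 to 32246 CPM in busulfan, 24588 to 27150 in control-FMT and 13924 to 26262 in AOS-FMT, and the 18 cardiomyocyte markers had a median log2 difference of -0.31. With a term for the atrial marker score, the medians were -0.15 for the cardiomyocyte markers, -0.16 for oxidative phosphorylation and -0.20 for the sarcomere list. In the control mice the oxidative phosphorylation list spread as widely as its FMT difference. Relative to the busulfan mean, it stood at 0.34, -0.46 and -0.03 in the 3 control libraries. The sarcomere list stood at 0.02, -0.27 and -0.42 there, and the cardiomyocyte markers, closer together, at -0.04, -0.27 and -0.31. The part of tissue makeup in these values was not tested.

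**Figure D5:**
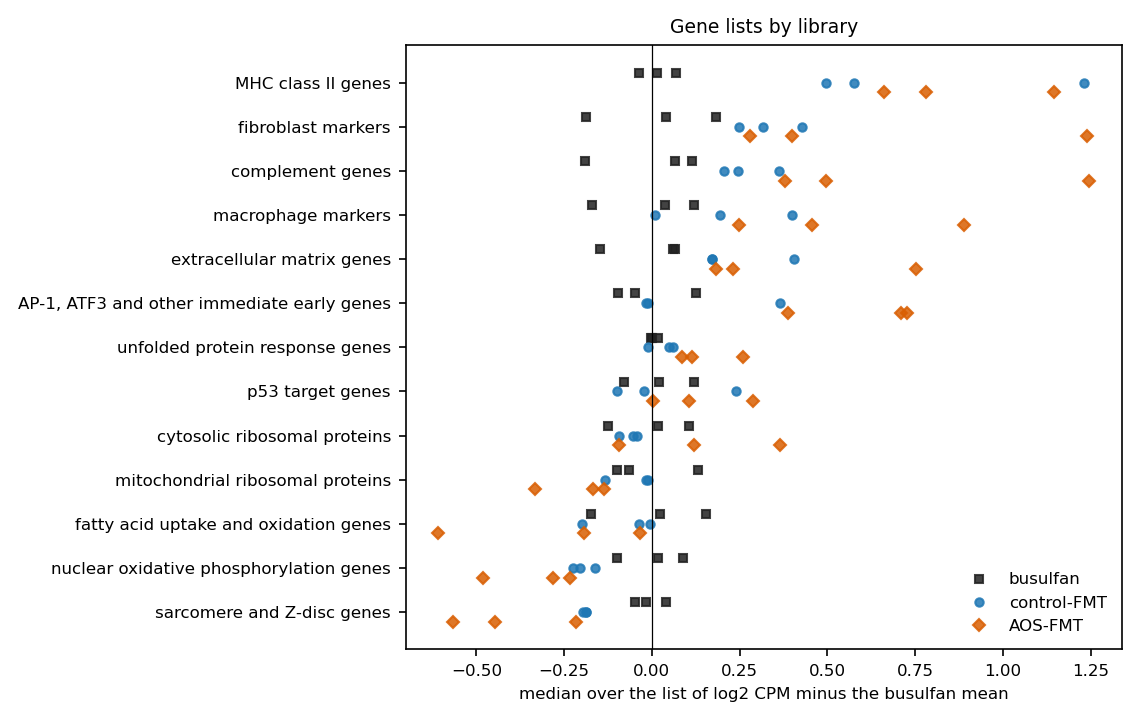
For 13 gene lists, the median over the list of each library's log2 CPM minus the busulfan mean (x axis), with busulfan as squares, control-FMT as circles and AOS-FMT as diamonds. The class II list lies at 0.50 or higher in the 6 FMT libraries and between -0.04 and 0.07 in busulfan, and the oxidative phosphorylation list lies at -0.16 or lower in the 6 FMT libraries.

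Fibroblast and most matrix genes had log2 differences above 0, and no member of either list was called by edgeR. All 16 fibroblast markers were above 0, with a median of 0.53 (0.34 for control-FMT, 0.72 for AOS-FMT), 9 were higher at an unadjusted p under 0.05 (4.45% over all genes) and 6 were fully separated upward (2.36% over all genes). Their summed level was 3961 to 5360 CPM in busulfan, 4872 to 5795 in control-FMT and 5468 to 10498 in AOS-FMT, and 5550 to 9057 in the control mice. Of 52 matrix genes, 47 were above 0, with a median of 0.33, 13 higher and 1 lower at an unadjusted p under 0.05, beside 4.45% and 3.45% of all genes. With a term for the atrial marker score the medians were 0.35 for the fibroblast list and 0.19 for the matrix list.

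Dpt, or dermatopontin, a small matrix protein of fibroblasts, was at 86.6, 99.9 and 120 CPM in busulfan, 127, 122 and 137 in control-FMT and 133, 254 and 160 in AOS-FMT. The gap between the groups was narrow, and AOS-FMT 2 stood far above the rest (0.59 ± 0.20). Mfap5, a microfibril protein, was at 17.1 to 25.1 and 27.6 to 51.2 CPM (0.68 ± 0.24). Col5a2, which helps to set fibril diameter, was at 46.3 to 55.6 and 56.9 to 108 CPM (0.55 ± 0.18), and Nid1, the basement membrane linker nidogen, at 178 to 184 and 191 to 255 CPM (0.29 ± 0.09). Col1a1, the main chain of type I collagen, overlapped, at 223 to 256 and 230 to 470 CPM (0.47 ± 0.25). Lama5, a basement membrane laminin chain, ran the other way, at 97.2 to 115 and 58.6 to 96.2 CPM (-0.42 ± 0.13).

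Igf1, the insulin-like growth factor, was at 15.1, 18.2 and 17.3 CPM in busulfan, 19.8, 27.7 and 28.5 in control-FMT and 21.4, 46.1 and 28.9 in AOS-FMT. It was fully separated upward, with a difference of 0.76 ± 0.26 that was not called (adjusted p 0.626, edgeR). Of 21 complement genes, 19 were above 0, with a median of 0.50 (0.24 for control-FMT, 0.78 for AOS-FMT) and 6 higher at an unadjusted p under 0.05 (4.45% over all genes). Among these C1ra, a protease of the first complement component, was at 41.3 to 47.2 CPM in busulfan and 49.3 to 102 after FMT (0.50 ± 0.19). C5ar1, the C5a receptor of myeloid cells, overlapped, at 2.62 to 4.18 and 3.97 to 7.53 CPM (0.78 ± 0.26).

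The 13 measured mesothelial and epicardial markers were all above 0, with a median of 1.30, but the libraries overlapped. Relative to the busulfan mean, the list stood at -0.01, -1.26 and 1.40 in busulfan and 0.17, 1.03 and 2.68 in control-FMT. In AOS-FMT it stood at 1.08, 3.64 and 1.37. Of the 13, 1 was higher at an unadjusted p under 0.05 (4.45% over all genes). Fully separated upward were 0 (2.36% over all genes). The 14 on the list summed to 15.3 to 40.8 CPM in busulfan, 23.8 to 53.1 in control-FMT and 33.8 to 150 in AOS-FMT. The highest of these sums was that of AOS-FMT 2, the library that also stood highest for the fibroblast list. Without it the mesothelial median was 0.50 and the complement median 0.29, and without busulfan replicate 3 the mesothelial median was 2.81. Endothelial markers had a median of 0.09, with a sign that turned without busulfan replicate 3, and mural cell markers one of 0.11, which was 0.01 without control-FMT replicate 3. The part of the mesothelial tissue in the matrix values was not tested.

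Hp encodes haptoglobin, an acute-phase protein that binds free haemoglobin and is made in liver, fat and myeloid cells. It was at 1.57, 1.87 and 2.45 CPM in busulfan, 3.21, 4.01 and 7.16 in control-FMT and 5.79, 12.5 and 11.8 in AOS-FMT. The groups were fully separated at this low level, and the control mice stood at 2.82 to 4.44. The pooled difference was 1.82 ± 0.33 (adjusted p 0.497, edgeR), with 1.28 for control-FMT and 2.35 for AOS-FMT, and DESeq2 called it at an adjusted p of 0.00108. The kinds differed by 1.07 (95% interval 0.35 to 1.79), not called. For fat, 12 adipocyte markers were measured, 7 above 0 and 5 below, with a median of 0.94 (0.91 for control-FMT, 0.97 for AOS-FMT). Over genes averaging at least 1 CPM that median was 0.095. Of the 12, 2 were higher at an unadjusted p under 0.05 (4.45% over all genes) and 0 fully separated upward (2.36%). The 14 on the list summed to 4311 to 4408 CPM in busulfan, 3880 to 4153 in control-FMT and 3053 to 4569 in AOS-FMT. The part of fat in Hp was not tested.

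Liver transcripts and Hp were both highest in AOS-FMT. Within each FMT group of 3 libraries, the order was not the same for both. Control-FMT 1 had the highest liver sum of its group, 138 CPM, and its lowest Hp, 3.21. AOS-FMT 3 had a liver sum of 1056 CPM and Hp at 11.8, and AOS-FMT 2 had 253 and 12.5. The part of liver tissue in Hp was not tested. All 20 liver markers had a log2 difference above 0, with a median of 1.67, of which 0.28 was that of control-FMT and 3.18 that of AOS-FMT. Alb, or albumin, was at 10.8, 9.33 and 11.7 CPM in busulfan, 23.8, 6.55 and 8.80 in control-FMT and 26.5, 28.3 and 302 in AOS-FMT. AOS-FMT 3 stood far above every other library. With a term for the liver marker score, the median of the 11 measured acute-phase genes turned from 1.56 to -0.17. Hp, which is on that list, stood at 1.78 with that term, 1.44 with the atrial term and 1.82 with neither. It was not called by edgeR in any of these fits. Serpina3n, an acute-phase protease inhibitor, was at 6.88 to 12.9 and 9.41 to 30.3 CPM (0.89 ± 0.31), and Cp, ceruloplasmin, at 53.8 to 87.1 and 86.4 to 138 CPM (0.78 ± 0.22). Both overlapped.

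The p53 targets, the group closest to the action of busulfan on DNA, had a pooled median of 0.03 over 26 genes. Of the 26, 2 were higher at an unadjusted p under 0.05, where 4.45% of all genes were. Cdkn1a, the cell-cycle inhibitor p21, was at 65.0, 80.2 and 72.6 CPM in busulfan, 63.3, 65.7 and 69.2 in control-FMT and 75.4, 88.7 and 86.8 in AOS-FMT, and at 31.3 to 42.7 in the control mice. The FMT libraries lay on both sides of busulfan and above all control libraries. The pooled difference was 0.03 ± 0.11 (95% interval -0.20 to 0.27). Its sign turned with a term for the atrial or the liver score and without busulfan replicate 1. Zmat3, a p53-induced RNA-binding protein, was at 13.9 to 16.5 CPM in busulfan, 11.4 to 15.1 after FMT and 6.93 to 8.73 in the control mice (-0.23 ± 0.12).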

How the data were processed

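The members and gene lists were chosen with earlier results of these data known. The labels name Illumina libraries from total RNA, without strand or read length. Estimated counts per gene were deposited by the authors, per the file headers, and 94.7% to 95.3% of a library's values were whole. FPKM and TPM values, also deposited, per the file headers, were not used in any test. The submitters' processing notes list Bowtie 0.12.2 and mm10. For the counting tool and the annotation, names were not given in the sources used here. Of 17536 genes listed, 17487 matched the RefSeq gene table of GRCm38.p6.

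Estimated counts were rounded, filtered with filterByExpr by group, and scaled by TMM (factors 0.908 to 1.08). All 12 libraries in 4 groups entered the robust quasi-likelihood fit of edgeR 4.0.16 (R 4.3.3), with a common biological coefficient of variation of 18.6%. The contrasts were the mean of both FMT groups minus busulfan, AOS-FMT minus control-FMT, and each kind minus busulfan. DESeq2 1.42.0 and limma-voom (limma 3.58.1) were alternatives, beside other scalings and filters, the 9 libraries alone, a replicate block, terms for the atrial and liver marker scores, and leaving out each library. The procedure was checked on simulated counts. No library was a copy of another of its group: chi-square divided by its degrees of freedom was 8.88 to 71.5 between replicates.

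Genes were named by a rule: the 6 smallest p in each direction of the pooled comparison with a group mean of at least 5 CPM, the 3 smallest in each direction between the kinds, up to 3 members of each of 46 lists, and 16 fixed genes. Named outside it, after their values were seen, were Hmga1b, Gvin1, Nr4a2, Ifi202b, Fam172a, H2-Eb1, H2-DMa, H2-DMb1 and Ctsk. Motifs were searched on both strands after the values were seen.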

Additional observations from a re-analysis of the deposited data

Results flagged for a closer look

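In all, 4 genes differed between the kinds of FMT by a test of that difference itself, edgeR's contrast of AOS-FMT against control-FMT. The log2 difference was 1.36 for Fosl2, 2.27 for Irs2, 1.56 for Sik1 and 1.49 for Gvin1 (adjusted p 0.04998, edgeR), each with the 3 AOS-FMT libraries above the 3 control-FMT libraries. A mean over both kinds does not describe these 4 genes. The atrial and liver marker sums reached their highest values in AOS-FMT, and with a term for either score none of the 4 was called.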

How the results depend on the processing

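Under edgeR the pooled comparison called 0 genes with every other scaling and filter tried, with the 9 libraries alone and with the terms for the atrial and liver scores. DESeq2 called 18, and the counts without a library ran from 0 to 1. The single call was Hmga1b without control-FMT replicate 3 and Bcl6 without AOS-FMT replicate 3. With a replicate block 1 gene was called, Hp at an adjusted p of 0.0404 by edgeR. Same-numbered libraries of different groups correlated at -0.137 to 0.291 in their deviations and other pairs at -0.299 to 0.296. In 8 of 18 comparisons the best match had its own number. With 3 libraries a group this cannot decide whether equal numbers share a litter or a day, which the labels do not state. Between the kinds, 4 calls became 2 by library size, 32 with DESeq2, 6 with the block, 0 with the atrial or the liver term, and 0 to 4 without a library. In these cases the cause was not tested. All sign changes were in uncalled values: Cdkn1a went to -0.0044 with the atrial term, -0.0448 with the liver term and ranged from -0.0404 (without busulfan replicate 1) to 0.110 without a library. Alb went to -0.143 with the liver term. Gvin1 went to -0.165 with the liver term, and without a library it ranged from -0.0716 (without AOS-FMT replicate 3) to 0.0896, with -0.0588 without busulfan replicate 3 and -0.0054 without control-FMT replicate 2. Genes near or under 1 CPM in busulfan, such as Ctsk and Nr4a2, rest on few counts there, and 3 libraries a group limit all tests.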

Other observations

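Hmga1 and Hmga1b encode the same chromatin protein of the high mobility group, from near-identical sequences on chromosomes 17 and 11, so reads may have been split between them and the value of either alone is uncertain. Hmga1b had 0, 0.33 and 2.61 estimated counts in the busulfan libraries, 211.32, 303.92 and 0 in control-FMT, and 259.8, 645.97 and 246.9 in AOS-FMT. The control mice had 2.22 to 3.28. Thus 5 of the 6 FMT libraries carried at least 211.32 counts, and control-FMT 3 carried 0, like the busulfan libraries. Hmga1 alone was at 130 to 148 CPM in busulfan and 49.4 to 122 after FMT. The sum of both genes, which does not depend on how reads were split between them, was 139 ± 8.97 CPM (SD, n = 3) in busulfan, 126 ± 19.7 in control-FMT, 98.7 ± 11.4 in AOS-FMT and 114 ± 9 in the control mice. Hmga1b made up at most 0.169% of that sum in busulfan and up to 45.7% after FMT.

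Some genes lay close to busulfan in control-FMT and apart in AOS-FMT without being called. Dnajb1, a heat shock co-chaperone, was at 15.9 to 23.8 CPM in busulfan, 20.1 to 23.5 in control-FMT and 28.5 to 54.6 in AOS-FMT. Tmem171, a membrane protein, was at 14.6 to 15.5, 14.8 to 15.5 and 7.36 to 8.92 CPM in the same order, a difference between the kinds of -0.93 ± 0.19 (adjusted p 0.292, edgeR). Rasl11b, a small GTPase of the Ras family, was at 34.9 to 50.2, 31.2 to 41.6 and 19.4 to 25.2 CPM. Bhlhe41, a clock repressor, ran the other way, at 19.9 to 22.6 CPM in busulfan, 25.8 to 33.0 in control-FMT and 18.7 to 20.8 in AOS-FMT, so that control-FMT stood apart. The unfolded protein response list had a pooled median of 0.12 over 21 genes, and cell-cycle genes 0.09 over 28, a median whose sign turned without busulfan replicate 3.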
